A study of Mus musculus with 26 samples.

Results

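The Ddx and Dhx genes encode RNA helicases of the DEAD-box and DEAH-box families. Members were all rows whose symbol starts with Ddx or Dhx followed by a digit, which gave 52 of 13765 genes, 36 of them Ddx and 16 Dhx. Their levels were compared between CD4+CD8+TCR- cells (DP cells, positive for both CD4 and CD8) of aortic arch, mediastinal adipose tissue and thymus. All cells came from female C57BL/6J mice aged 8 weeks with no stated genetic change or treatment. Tissue of 5 mice was combined into a pool, and the 4 pools of each tissue were read as 9 libraries for arch, 8 for adipose tissue and 9 for thymus. Adipose pool 2 had 1 library, and every other pool had 2 or 3. Viable cells with CD4 and CD8b but no T-cell receptor on the surface were sorted in lots of 400, and 200 cells went into each library. Cells of arch and adipose tissue were freed by digestion, a step the labels do not state for thymus, so tissue and digestion cannot be told apart.

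DEAD-box and DEAH-box proteins use ATP to unwind short RNA duplexes or to strip proteins from RNA. Different members act at different steps of the life of an RNA, including splicing, export from the nucleus, assembly of ribosomes, translation, decay and the sensing of viral RNA. The stage at which a thymocyte carries both CD4 and CD8 follows a burst of division, and most of its cells are then at rest while the T-cell receptor alpha genes are rearranged. Ddx26b, kept here by its symbol, is Ints6l in current annotation, a gene related to a subunit of the Integrator complex and not an RNA helicase.

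Ddx39b was the 1 member called in any tissue comparison of the main test, and it stood lower in adipose DP cells. Its promoter on chromosome 17 is shown because of that call, and those of Dhx40, Ddx52 and Ddx21 because these 3 had an unadjusted p under 0.05 and stood above thymus in both arch and adipose tissue. The sequences are from RefSeq (build GRCm38.p6) and run 5′ to 3′ along the gene's strand, with 250 bases before and 50 after its start. They lie at chr17:35241496-35241795 on the plus strand for Ddx39b, chr11:86807611-86807910 on the minus strand for Dhx40, chr11:83941840-83942139 on the plus strand for Ddx52 and chr10:62602249-62602548 on the minus strand for Ddx21. Capitals mark matches to any of 5 searched motifs (GAAGCTTC and CCGGAAGT in Ddx39b, CACGTG in Dhx40), and Ddx52 and Ddx21 held no match.
Ddx39b: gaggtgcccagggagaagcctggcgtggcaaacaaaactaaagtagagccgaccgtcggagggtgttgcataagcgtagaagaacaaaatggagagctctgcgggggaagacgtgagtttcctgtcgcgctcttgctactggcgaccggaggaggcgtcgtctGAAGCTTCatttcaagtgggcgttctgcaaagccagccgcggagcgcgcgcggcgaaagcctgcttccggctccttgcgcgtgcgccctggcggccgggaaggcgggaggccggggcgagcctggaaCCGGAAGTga
Dhx40: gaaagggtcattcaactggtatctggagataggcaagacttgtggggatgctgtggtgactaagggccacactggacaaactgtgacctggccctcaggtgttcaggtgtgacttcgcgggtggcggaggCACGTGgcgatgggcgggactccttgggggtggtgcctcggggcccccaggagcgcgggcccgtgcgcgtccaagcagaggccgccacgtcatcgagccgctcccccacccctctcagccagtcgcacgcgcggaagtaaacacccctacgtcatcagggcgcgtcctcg
Ddx52: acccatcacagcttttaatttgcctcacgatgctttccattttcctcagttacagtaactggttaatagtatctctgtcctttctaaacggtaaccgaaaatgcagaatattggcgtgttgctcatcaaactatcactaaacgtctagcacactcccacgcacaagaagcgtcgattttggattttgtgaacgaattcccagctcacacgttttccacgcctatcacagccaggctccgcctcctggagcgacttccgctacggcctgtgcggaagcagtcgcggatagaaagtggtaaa
Ddx21: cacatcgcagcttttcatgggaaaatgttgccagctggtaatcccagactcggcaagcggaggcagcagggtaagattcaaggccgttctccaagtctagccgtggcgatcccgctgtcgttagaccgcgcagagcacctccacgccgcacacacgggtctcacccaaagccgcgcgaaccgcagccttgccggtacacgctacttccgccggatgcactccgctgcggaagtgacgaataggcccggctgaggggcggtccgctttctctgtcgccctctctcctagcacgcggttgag

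RefSeq promoters were matched for 46 of the 52 members (57 promoters, since some genes have several starts). Ddx11, Ddx23, Ddx39, Ddx6, Dhx38 and Dhx58 had none. Each motif was searched on both strands and counted on its own, so that motifs could overlap. The Ets motif CCGGAAGT stood in 11 of 57 member promoters (19.3%), those of Ddx17, Ddx27, Ddx39b, Ddx47, Ddx50, Dhx30, Dhx34, Dhx37, Dhx8 and Dhx9, against 3.89% of all 32851 promoters and 9.4% of the 8446 promoters of tested genes. The cAMP response element TGACGTCA stood in 10.5% of member promoters (Ddx19a, Ddx28, Ddx49, Ddx51 and Dhx36), against 1.79% of all promoters and 3.5% of those of tested genes. For the E-box CACGTG the shares were 10.5% of member promoters, 7.15% of all promoters and 10.5% of those of tested genes. For the heat shock element pair GAANNTTC they were 8.77%, 7.86% and 5.83% in the same order, and for the AP-1 motif TGANTCA they were 1.75%, 7.81% and 4.32%. The median GC content was 59.7% in member promoters, 52.7% in all promoters and 61.0% in those of tested genes. These shares describe letters in a window and were not tested.

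Reads recovered from the deposited normalised values numbered 11577253 to 34599519 per pool, and 9091 to 11894 genes were detected. A set of 12 DP thymocyte markers, Cd4, Cd8a, Cd8b1, Rag1, Rag2 and Dntt among them, summed to 8271 to 10218 CPM (reads scaled to a common library total) in arch pools, 7825 to 12858 CPM in adipose pools and 21826 to 24423 CPM in thymus pools. The sum was lower in arch and adipose tissue than in thymus. Cells were sorted on CD4 and CD8b, so Cd4 and Cd8b1 in this sum cannot test the label. Rag1, Rag2, Dntt and Ptcra, which the sort did not use, were read in every pool. Rag2 was lowest in arch pool 4 at 393 normalised counts, against 13263 to 25978 in thymus pools. Ptcra was lowest in adipose pool 1 at 198, against 1677 to 2916 in thymus pools. Markers of other cells, 47 in the table, summed to 634.3, 3986, 639.6 and 6479 CPM in arch pools 1 to 4, to 3162, 561.7, 385.2 and 543.7 CPM in adipose pools 1 to 4, and to 502.8 to 868.9 CPM in thymus pools. The highest sums were those of fibroblast markers in arch pool 4 (6051 CPM), smooth muscle markers in arch pool 2 (1850.2 CPM) and B cell markers in adipose pool 1 (1758 CPM). Cd79a and Ms4a1 of the B cell list and Myh11, Cnn1 and Des of the smooth muscle list were at 0 in all 4 thymus pools. Ms4a1 and Des were also at 0 in all 4 arch pools, and Myh11 and Cnn1 in all 4 adipose pools. Cd79b of the B cell list was read in each tissue. It averaged 1103 ± 797 normalised counts in arch, 1765 ± 1399 in adipose pools and 2336 ± 1245 in thymus (SD, 4 pools each). In bulk samples, fewer cells of a type and less RNA per cell cannot be told apart.

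Together the 52 members took 0.54% to 0.794% of the recovered reads in arch pools, 0.608% to 0.731% in adipose pools and 0.677% to 0.771% in thymus pools, so the ranges overlapped. Ddx5 alone made up 33.2% to 54.7% of the members' summed CPM in a pool. A gene entered the tests with a normalised read count of at least 100 in at least 4 of the 12 pools, which 9106 genes and 49 members reached. The other 3 were Ddx4 (the germ cell helicase Vasa), read in adipose pool 1 alone at 22.1, Ddx43, a gene known from germ cells and tumours and read in thymus pool 2 alone at 44.9, and Dhx58. Dhx58 encodes LGP2, a relative of the RNA sensor RIG-I. It had 20.4, 0, 0 and 0 normalised counts in arch pools, 18.0, 0, 51.7 and 0 in adipose pools, and 304, 0, 0 and 266 in thymus pools.

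Levels can be compared between genes only per length, and all 52 members have an exonic length in the GENCODE annotation of GRCm38. Ddx5, a coregulator of transcription that also takes part in microRNA processing, had the highest level in each tissue. It averaged 11771 ± 2719 normalised counts per kb of exon in arch, 10413 ± 1425 in adipose pools and 10753 ± 2526 in thymus, with SDs over 4 pools, which was 6.02 times the level of the next member over all pools. The median of the tested members was 189 normalised counts per kb.

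Next in order over all pools stood Ddx39 with 1457 ± 265, 1688 ± 528 and 2328 ± 131 normalised counts per kb in arch, adipose tissue and thymus, and Ddx39b with 1069 ± 117, 861 ± 143 and 1794 ± 425. In arch pools the neighbours Ddx47 (1154 ± 252), Dhx40 (1092 ± 464) and Ddx39b lay within each other's SD. Ddx21 ranked 11 of the members per kb in arch, 15 in adipose pools and 26 in thymus. About 14.6% of the 50-base words of Ddx5 also occur in another gene, mostly Gm12183, so its level is uncertain to that extent.

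**Figure D1:**
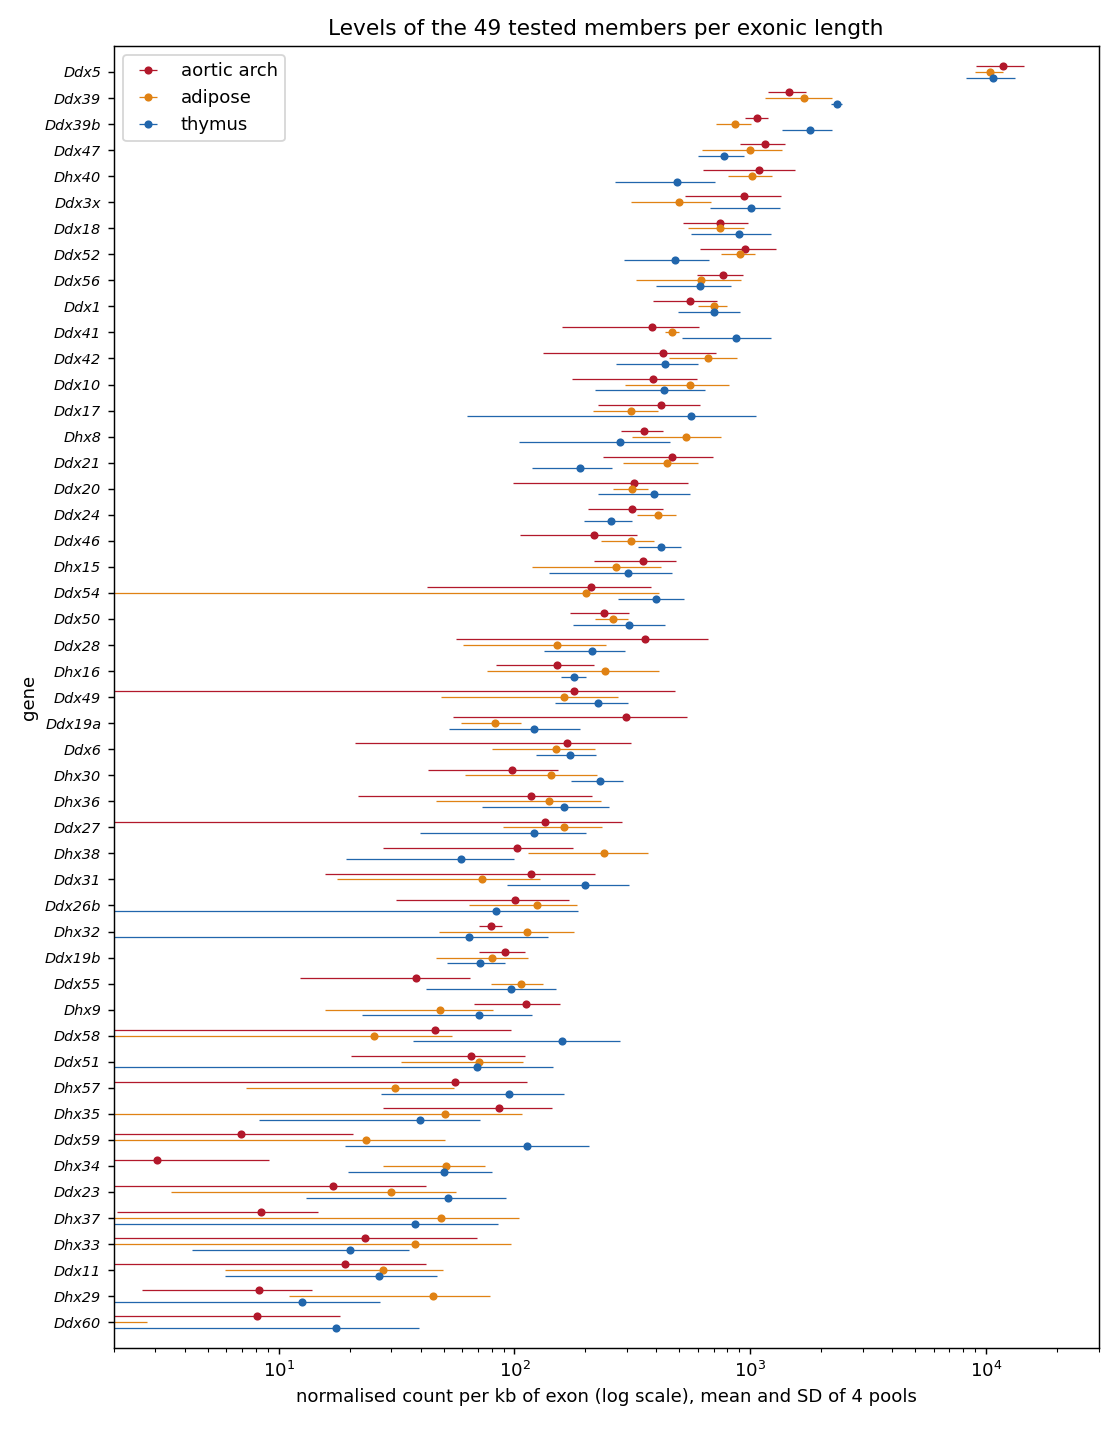
Normalised read count per kb of exon (x axis, log scale) for the 49 tested members (y axis, ordered by the mean over all pools), with points for the mean and lines for the SD of 4 pools in aortic arch, adipose tissue and thymus. Ddx5 stands apart at 10413 to 11771 per kb, and the SD lines of most other neighbours overlap.

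The spread between pools followed the level. Across the 14 tested members with a mean normalised count of at least 2000, the median within-tissue SD was 0.42 on the log2(normalised count + 20) scale, beside 0.44 over all 2337 such genes. For the 20 members between 500 and 2000 it was 1.16, beside 0.94 over 3701 genes, and for the 15 members under 500 it was 1.59, beside 1.57 over 3068 genes. Ddx39b had the smallest SD of any tested member (0.25), followed by Ddx39 (0.27) and Ddx5 (0.3). A 95% interval of a tissue difference was 3.43 log2 units wide for the median member and 0.79 to 6.19 over the members. Differences that lie well within such an interval were not detectable at this spread.

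Some pools were at 0 even for members that other pools held at high levels. Of the 49 tested members 17 had at least 1 pool at 0, which came to 38 of 588 values, and 14 of the 17 reached 500 or more in another pool. By pool 0% to 16.3% of members were at 0, beside 1.98% to 16.2% of all tested genes. In thymus pool 3 these shares were 4.08% and 11.4%. Dhx9, a nuclear helicase of transcription and RNA processing, had no read in adipose pool 2, where 0 corresponds to under 4.36 normalised counts (3 reads), and 579, 592 and 684 in the other adipose pools. Ddx20, a component of the SMN complex that assembles small nuclear RNPs, had none in arch pool 4 and 1742, 2104 and 1484 in arch pools 1 to 3.

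The pools with the most members at 0 were adipose pool 2 (16.3% of members, 9.81% of all tested genes), arch pool 4 (14.3% and 16.2%) and arch pool 2 (12.2% and 14.3%). Adipose pool 2 is the pool read as 1 library of 200 cells, and the part of this in its zeros was not tested. Among ribosome assembly helicases, Ddx31 and Ddx49 were each at 0 in 1 arch pool and in adipose pool 2, and Dhx33 was at 0 in 2 arch pools, adipose pool 2 and thymus pool 1 while arch pool 4 held 929.8 and adipose pool 1 held 1261.

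In adipose DP cells against thymus DP cells, 1 of 49 members (2.04%) was called by limma at an adjusted p under 0.05, beside 2.84% of all 9106 genes. That member was Ddx39b (UAP56), which helps the U2 small nuclear RNP join the branch site during splicing and then loads export factors on the mRNA. It had 4066, 2921, 2995 and 3043 normalised counts in adipose pools 1 to 4, against 7805, 5872, 8448 and 5025 in thymus pools 1 to 4. Every adipose pool lay below every thymus pool. Ddx39b fell by 1.04 ± 0.26 on the log2 scale (SE; adjusted p = 0.0318, limma, 4 pools per tissue).

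Ddx39b was also lower in arch than in thymus, a difference called by DESeq2 (-0.74, adjusted p = 0.0153) and not by limma or edgeR. Arch pools 1 to 4 had 4295, 4042, 3421 and 4417 normalised counts, all below the 4 thymus pools. The difference of arch from thymus was -0.72 ± 0.26 (log2, SE; adjusted p = 0.101, limma), and that of arch from adipose tissue was 0.32 ± 0.26 (adjusted p = 0.694). Both comparisons with thymus share the thymus pools.

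The call of Ddx39b in adipose tissue against thymus rests on few pools. Leaving out adipose pool 2, 3 or 4 gave an adjusted p of 0.0694, 0.0952 or 0.0961 by limma, and leaving out thymus pool 1, 2 or 3 gave 0.115, 0.0539 or 0.11, while the log2 difference stayed between -1.17 and -0.92. Without the 3 pools with the fewest reads per library (arch pools 2 and 4, thymus pool 3) it was -0.92 with an adjusted p of 0.0688. Without the 3 pools richest in markers of other cells (arch pools 2 and 4, adipose pool 1) it was -1.15 with an adjusted p of 0.0201. edgeR called Ddx39b with an adjusted p of 0.0299 and DESeq2 with 0.000163. The sum of DP markers was lower in the same tissues, and its part in the difference was not tested.

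Other tools and looser rules gave these counts for adipose tissue against thymus. By edgeR 2.33% of all genes and by DESeq2 5.92% were called, and with each tool the 1 member called was Ddx39b. An unadjusted edgeR p under 0.05 was reached by 5 members (10.2%), beside 9.59% of all genes. At an unadjusted limma p under 0.05, 4 members (8.16%) stood higher in adipose tissue, beside 7.98% of all genes, and these were Ddx21, Ddx52, Dhx38 and Dhx40. A further 4 (8.16%) stood lower, beside 4.83%, and these were Ddx39, Ddx39b, Ddx3x and Ddx58. Pools did not overlap for 2 members on the higher side (Ddx52 and Dhx38), beside 5.48% of all genes, and for 2 on the lower side (Ddx39b and Ddx3x), beside 4.99%. Over the members the median log2 difference was -0.13 with 22 above and 27 below 0, beside a median of -0.01 over all genes.

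In arch DP cells against thymus DP cells, 0 of 49 members were called by limma at an adjusted p under 0.05, although 6.57% of all genes were. edgeR also called 0 members, beside 4.01% of all genes, with 7 members (14.3%) at an unadjusted edgeR p under 0.05, beside 15.4% of all genes. DESeq2 called 5 members (10.2%), beside 11.1% of all genes: Ddx21, Ddx52 and Dhx40 higher in arch, Ddx39 and Ddx39b lower. By limma 3 members (6.12%) stood higher at an unadjusted p under 0.05, beside 10.3% of all genes, and they were Ddx21, Ddx52 and Dhx40. On the lower side were 8 members (16.3%), beside 12.4% of all genes: Ddx39, Ddx39b, Ddx41, Ddx46, Ddx58, Ddx59, Dhx30 and Dhx34.

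Pools of arch and thymus did not overlap for 4 members on the lower side (8.16%: Ddx39, Ddx39b, Dhx30 and Dhx34), beside 6.64% of all genes, and for 0 on the higher side, beside 6.6%. Over the members the median log2 difference was -0.34, with 18 above and 31 below 0 (63.3% below), beside a median of -0.2 and 57.3% below 0 over all genes.

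Between arch and adipose DP cells no member passed the test. By limma 0 members were called at an adjusted p under 0.05, beside 0.176% of all genes, and edgeR and DESeq2 also called 0, beside 0.0879% and 1.84%. At an unadjusted limma p under 0.05 the count was 0 on the higher side, beside 3.51%, and 1 on the lower side (Dhx34), beside 6.96%. By edgeR it was 1 in either direction (Ddx3x), beside 6.41%. Pools did not overlap for 0 members on the higher side, beside 2.46%, and for 2 on the lower side (Ddx55 and Dhx34), beside 2.89%. The median log2 difference was -0.17 over the members and -0.17 over all genes. A missed threshold does not show equal levels: for Ddx5, whose limma interval was the narrowest of the 49 members, the 95% interval of the log2 difference was -0.24 to 0.55, and for Dhx33 it was -4.61 to 1.58.

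**Figure D2:**
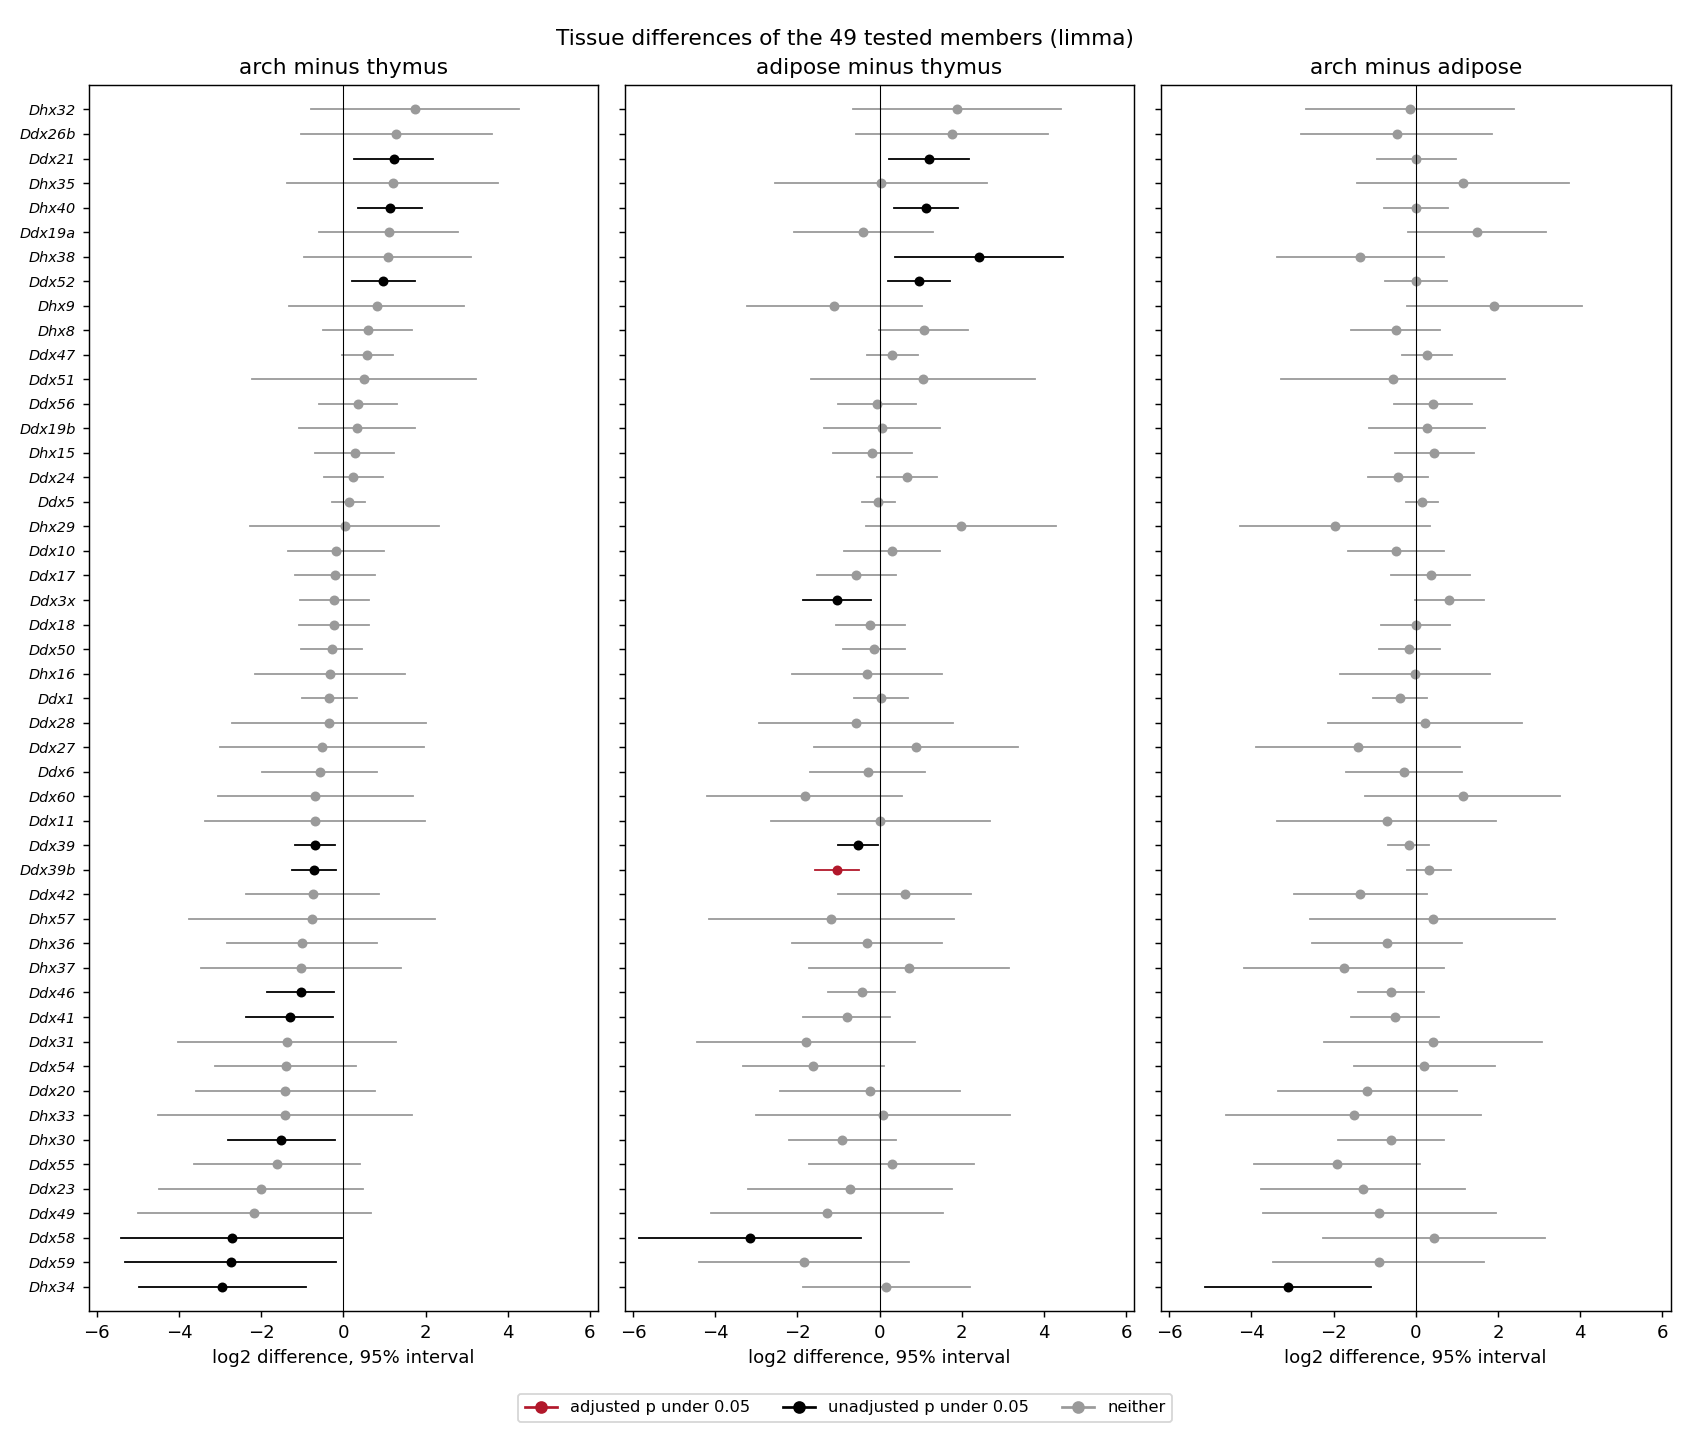
Log2 differences of the 49 tested members with 95% intervals from limma, in panels for arch minus thymus, adipose minus thymus and arch minus adipose, genes on the y axis ordered by arch minus thymus. Ddx39b in adipose minus thymus (-1.04) is the red point, the single adjusted call, and black points have an unadjusted p under 0.05.

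Among the 10 spliceosome members, limma called 1 (Ddx39b) in adipose tissue against thymus, beside 2.84% of all genes, and 0 in arch against thymus, beside 6.57%, where DESeq2 called 1 (Ddx39b). An unadjusted limma p under 0.05 was reached by 2 in adipose tissue and 3 in arch, beside 12.8% and 22.7% of all genes. Their median log2 difference from thymus was -0.52 in arch and -0.24 in adipose tissue, beside -0.2 and -0.01 over all genes. Ddx46 (Prp5) promotes the stable joining of the U2 particle to the branch site. It had 1599, 1117, 907 and 2743 normalised counts in arch pools, 2920.0, 1843, 1730.2 and 2602 in adipose pools, and 3421, 3014, 3617 and 2192 in thymus pools. Arch pool 4 lay above the lowest thymus pool and the other 3 arch pools below all thymus pools, and arch minus thymus was -1.04 ± 0.39 (log2, SE; adjusted p = 0.115, limma). Leaving out arch pool 4 gave -1.34 with an adjusted p of 0.0387.

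Ddx41 takes part in splicing and in the sensing of cytosolic nucleic acid. It had 338, 727, 1412 and 1640.3 normalised counts in arch pools, 1131, 1271, 1335 and 1268 in adipose pools, and 2323, 3597, 1302 and 2093 in thymus pools. The arch values spread over more than the adipose values, and thymus pool 3 lay among them (arch minus thymus -1.30, adjusted p = 0.131, limma). A transcript on the opposite strand, Gm46416, overlaps 17.4% of the exonic bases of Ddx41, and strand use in counting is not stated.

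Dhx38 (Prp16) acts between both catalytic steps of splicing. It had 181, 951, 224 and 687 normalised counts in arch pools, 1980.4, 545, 871 and 1380.5 in adipose pools, and 444, 334, 4.37 and 401 in thymus pools. All adipose pools lay above all thymus pools, of which pool 3 was near 0, and adipose minus thymus was 2.43 ± 0.97 (log2, SE; adjusted p = 0.266, limma). Without thymus pool 3 the difference was 1.41 with an adjusted p of 0.563.

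Dhx15 (Prp43), which takes spent spliceosomes apart, averaged 2989 ± 1142 normalised counts in arch, 2283 ± 1276 in adipose pools and 2576 ± 1388 in thymus, with SDs over 4 pools. Ddx42, a partner of the SF3b complex, averaged 1795 ± 1236 in arch, 2803 ± 899 in adipose pools and 1838 ± 694 in thymus, with arch pool 4 at 77.7 and the other arch pools at 1895 to 3003. In both genes the tissues overlapped.

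Of the 4 members with a role in mRNA export, which include Ddx39b, 1 was called by limma in adipose tissue against thymus, beside 2.84% of all genes, and 0 in arch against thymus, beside 6.57%. DESeq2 called 2 of the 4 in arch, Ddx39b and Ddx39, beside 11.1% of all genes. Ddx39, the close paralog of Ddx39b (Ddx39a in current RefSeq naming), had 9287, 5982, 7584 and 7197 normalised counts in arch pools, 5691, 7457, 11958 and 9697 in adipose pools, and 11245, 12308, 12777 and 11682 in thymus pools. All 4 arch pools lay below the 4 thymus pools, and adipose pool 3 reached into their range. Arch minus thymus was -0.69 ± 0.23 (log2, SE; adjusted p = 0.0844, limma) and adipose minus thymus -0.52 ± 0.23 (adjusted p = 0.358). By DESeq2 the adjusted p for arch was 0.0283, and without adipose pool 1 the adipose difference was -0.33 (adjusted p = 0.657, limma). Adgre5 overlaps 17.4% of the exonic bases of Ddx39 on the opposite strand.

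Ddx19a and Ddx19b remodel mRNA at the cytoplasmic face of the nuclear pore. Ddx19b averaged 613 ± 137 normalised counts in arch, 542 ± 229 in adipose pools and 483 ± 133 in thymus, and Ddx19a 878 ± 716, 245 ± 69.8 and 358 ± 202 in the same order (SD, n = 4 each). The high arch mean of Ddx19a came from arch pool 4 (1928), with the other arch pools at 325 to 681. These neighbours share sequence (28.1% of the 50-base words of Ddx19a and 12.4% of those of Ddx19b), so reads could be split between them.

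Among the 16 members of nucleolar ribosome assembly, 0 were called by limma in either comparison with thymus, beside 6.57% of all genes in arch and 2.84% in adipose tissue. In each comparison 2 of the 16 had an unadjusted limma p under 0.05, Ddx21 and Ddx52, beside 22.7% of all genes in arch and 12.8% in adipose tissue, so the count was not above the share of all genes. DESeq2 called both in arch and neither in adipose tissue. Their median log2 difference from thymus was -0.26 in arch and 0.3 in adipose tissue, beside -0.2 and -0.01 over all genes. Ddx21 works in ribosomal RNA transcription and processing. It had 2991, 3791, 1546 and 1325 normalised counts in arch pools, 2667, 3114, 1227 and 2180.0 in adipose pools, and 695, 1251, 1336 and 640.1 in thymus pools. The highest thymus pools overlapped the lowest pools of arch and adipose tissue. Arch minus thymus was 1.22 ± 0.46 (log2, SE; adjusted p = 0.119, limma) and adipose minus thymus 1.21 ± 0.46 (adjusted p = 0.232).

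Ddx50, the paralog that neighbours Ddx21 on chromosome 10, averaged 2417 ± 673 normalised counts in arch, 2652 ± 425 in adipose pools and 3100.0 ± 1304 in thymus. The ratio of Ddx21 to Ddx50 counts, looked at after the values were seen, was 0.876, 1.72, 0.794 and 0.63 in arch pools, 1.07, 1.05, 0.578 and 0.722 in adipose pools, and 0.411, 0.287, 0.33 and 0.278 in thymus pools. Each arch and adipose pool lay above each thymus pool in this ratio, which is given as a description with no test. In the other 3 paralog pairs the tissues overlapped. Ddx39b over Ddx39 was 0.451 to 0.676 in arch, 0.25 to 0.714 in adipose pools and 0.43 to 0.694 in thymus, and Ddx5 over Ddx17 was 12.2 to 43.1, 14.8 to 42.8 and 4.94 to 39.3 in the same order. Ddx19a over Ddx19b was 0.619 to 3.04 in arch, 0.302 to 1.69 in adipose pools and 0.452 to 1.55 in thymus.

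Ddx52, the mammalian counterpart of a yeast helicase of the small ribosomal subunit, had 2248, 4322, 2156 and 3890.0 normalised counts in arch pools, 2831, 2806, 3722 and 2649 in adipose pools, and 1095, 1579, 1232 and 2491 in thymus pools. All adipose pools lay above all thymus pools, while thymus pool 4 stood above 2 arch pools. Arch minus thymus was 0.98 ± 0.36 (log2, SE; adjusted p = 0.113, limma) and adipose minus thymus 0.96 ± 0.36 (adjusted p = 0.223). The arch difference was 0.43 (adjusted p = 0.648) without the 3 pools with the fewest reads per library and 0.53 (adjusted p = 0.55) without the 3 pools richest in markers of other cells, and DESeq2 called it (adjusted p = 0.043).

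Ddx47, a helicase of early ribosomal RNA processing, had 7489, 9956, 5913 and 7354 normalised counts in arch pools, 3476, 7169.9, 6422 and 9468 in adipose pools, and 4861, 3667, 5836 and 6212 in thymus pools. The tissues overlapped, and the 95% interval of arch minus thymus was -0.04 to 1.20 on the log2 scale. Ddx24 averaged 2601 ± 909 normalised counts in arch, 3361 ± 635 in adipose pools and 2116 ± 492 in thymus. Ddx55, a helicase of the large ribosomal subunit, had 233, 1.9, 314 and 264 in arch pools and 700.2, 662, 468 and 418 in adipose pools, which did not overlap (arch minus adipose -1.91 ± 0.96, log2, SE; adjusted p = 0.495, limma). Its thymus pools (186, 383, 843 and 634) spanned both ranges. Ddx18 shares 55.9% of its 50-base words with other genes, mostly Gm16433, and its counts are uncertain to that extent.

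Neither member of mitochondrial ribosome assembly was called by limma, edgeR or DESeq2. Over all genes limma called 6.57% in arch against thymus, 2.84% in adipose tissue against thymus and 0.176% in arch against adipose tissue. In the same order edgeR called 4.01%, 2.33% and 0.0879% of all genes, and DESeq2 11.1%, 5.92% and 1.84%. In arch against thymus Dhx30 alone had an unadjusted limma p under 0.05, beside 22.7% of all genes. In adipose tissue against thymus neither member did, beside 12.8%. Dhx30 had 1072, 1516, 1371 and 205 normalised counts in arch pools, 2471, 426, 1364 and 1797 in adipose pools, and 2587, 2087, 3251 and 1892 in thymus pools. Every arch pool lay below every thymus pool (arch minus thymus -1.51 ± 0.62, log2, SE; adjusted p = 0.152, limma). Without arch pool 4, the lowest, the difference was -0.87 with an adjusted p of 0.34. Ddx28 had 1132, 1562, 544 and 0 in arch pools, 180.1, 200.4, 628 and 367 in adipose pools, and 349, 706, 325 and 553 in thymus pools, and its tissues overlapped. It averaged 809 ± 682 in arch, 344 ± 207 in adipose pools and 483 ± 180.5 in thymus (SD, n = 4 each), while arch minus thymus on the log2(normalised count + 20) scale was -0.34, with arch pool 4 at 0.

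**Figure D3:**
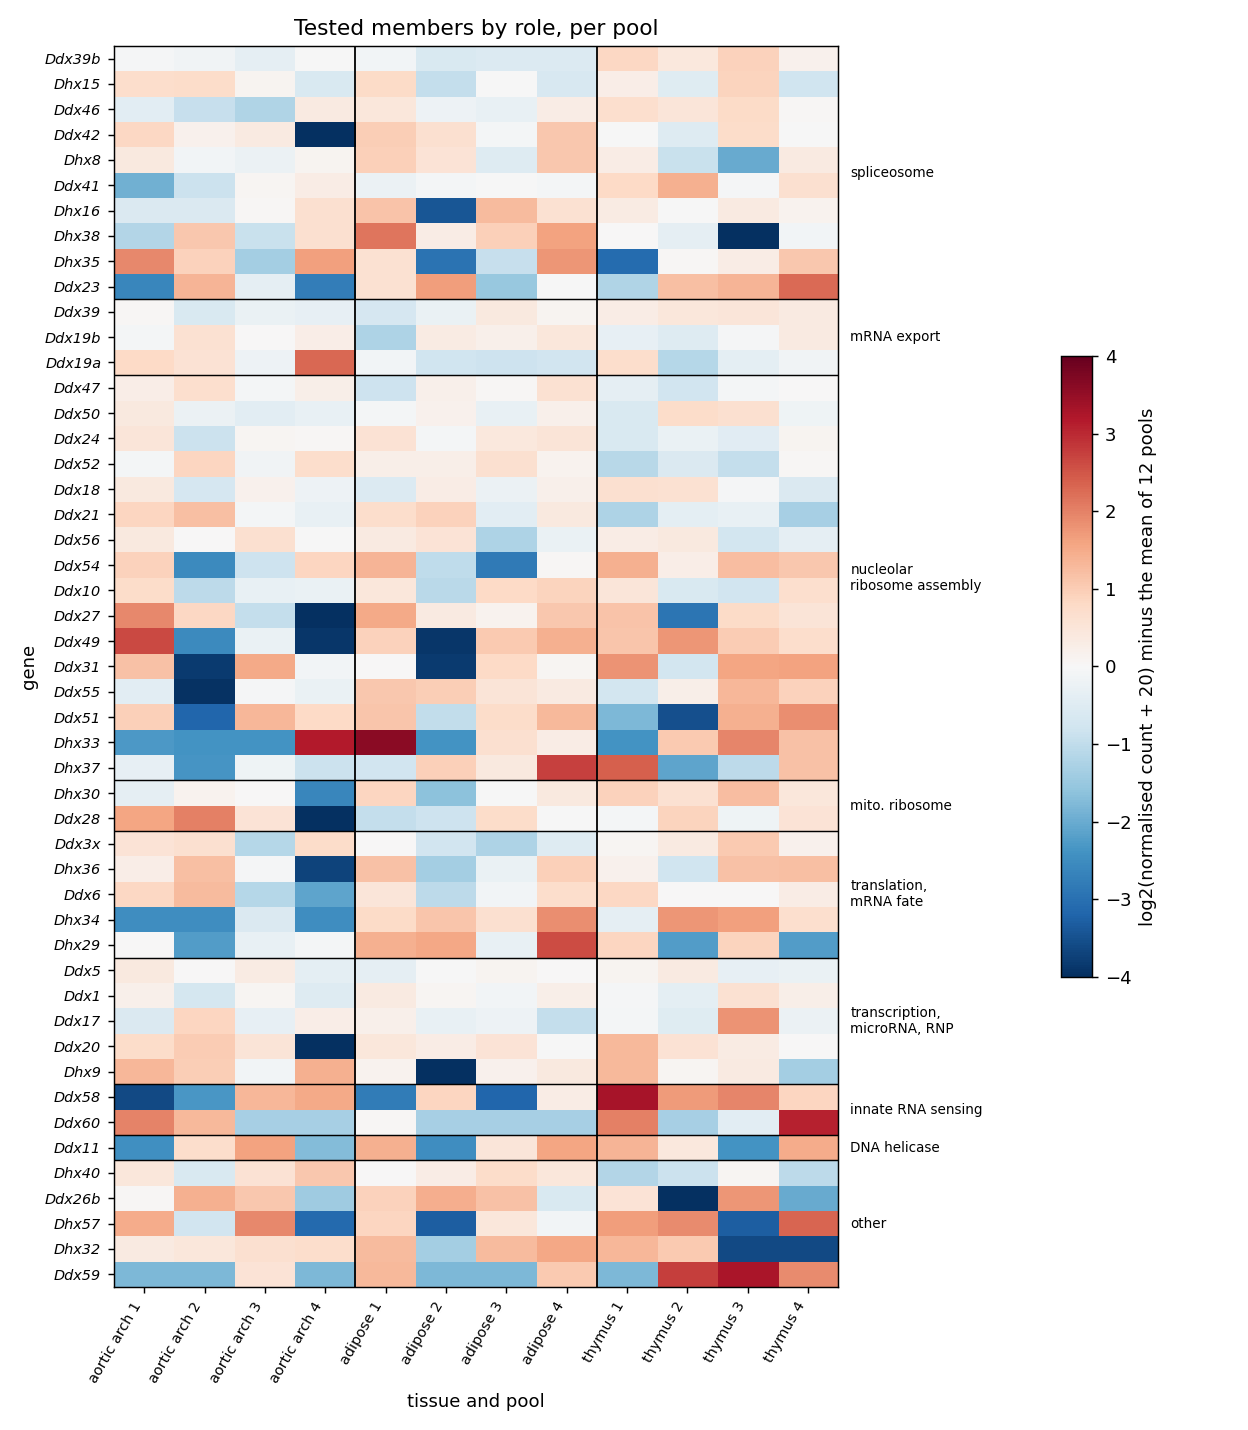
Log2(normalised count + 20) of each tested member (rows, grouped by role) minus its mean over 12 pools (colour scale, -4 to 4), with pools of arch, adipose tissue and thymus in columns. Ddx39b is above its mean in all 4 thymus pools, and the deep blue cells scattered over single pools are largely values at or near 0.

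For translation and the fate of mRNA in the cytoplasm there were 5 members, with 0 called by limma, edgeR or DESeq2 in any comparison. Over all genes limma called 6.57% in arch against thymus, 2.84% in adipose tissue against thymus and 0.176% in arch against adipose tissue. In the same order edgeR called 4.01%, 2.33% and 0.0879% of all genes, and DESeq2 11.1%, 5.92% and 1.84%. In each comparison with thymus 1 of the 5 had an unadjusted limma p under 0.05. Over all genes this held for 22.7% in arch and 12.8% in adipose tissue. Between arch and adipose tissue 1 of the 5 stood lower at that p, beside 6.96%. Ddx3x, an X-linked helicase that helps initiate translation on structured mRNA, had 5652, 6032, 1723 and 6429 normalised counts in arch pools, 3913, 2261, 1622 and 2686 in adipose pools, and 4064, 4918, 7919 and 4367 in thymus pools. All adipose pools lay below all thymus pools (adipose minus thymus -1.03 ± 0.4, log2, SE; adjusted p = 0.242, limma). Arch pools 1, 2 and 4 lay in the thymus range and pool 3 in the adipose range (arch minus thymus -0.22, adjusted p = 0.797).

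Dhx34, which takes part in nonsense-mediated mRNA decay, had the largest log2 difference in size between arch and thymus of the 49 tested members at a pseudocount of 20, an order that did not hold at 100, where Ddx58 (-1.84) and Ddx59 (-1.57) exceeded it (-1.45). It had 0, 0, 55.7 and 0 normalised counts in arch pools, 170.3, 224, 157 and 392 in adipose pools, and 67.4, 361, 331 and 162 in thymus pools. In reads these were 0, 0, 69 and 0 in arch pools, where 3 reads correspond to 2.42 to 5.71 normalised counts. The arch pools lay below all others, and the log2 difference, which depends on the pseudocount because 3 arch pools were at 0, was -2.94 ± 0.96 against thymus (SE; adjusted p = 0.0762, limma) and -3.11 ± 0.96 against adipose tissue (adjusted p = 0.326). Over the alternatives it ran from -4.39 to -1.45 against thymus.

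Dhx36, which resolves G-quadruplexes, averaged 1199.8 ± 978 normalised counts in arch, 1431 ± 954 in adipose pools and 1653 ± 909.9 in thymus. Ddx6, a decapping activator of processing bodies, averaged 1339.85 ± 1170.3 in arch, 1208 ± 559.8 in adipose pools and 1379.7 ± 393 in thymus. Neither was separated between tissues beyond its spread. Dhx29, which aids scanning by the small ribosomal subunit, had 73.3, 0, 56.5 and 68.4 in arch pools, 228, 251, 55.8 and 548 in adipose pools, and 148, 0, 153 and 0 in thymus pools.

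The 5 members with roles in transcription, microRNA and RNP processing had 0 calls by limma, edgeR or DESeq2 in any of the 3 comparisons. Over all genes limma called 6.57% in arch against thymus, 2.84% in adipose tissue against thymus and 0.176% in arch against adipose tissue. In the same order edgeR called 4.01%, 2.33% and 0.0879% of all genes, and DESeq2 11.1%, 5.92% and 1.84%. In each comparison 0 of the 5 had an unadjusted limma p under 0.05. Against thymus this held for 22.7% of all genes in arch and 12.8% in adipose tissue. Ddx5 had 82205, 63168, 78599 and 47948 normalised counts in arch pools, 48421, 61424, 67578 and 63126 in adipose pools, and 67346, 80346, 49418 and 51279 in thymus pools. Its tissues overlapped widely, and the 95% interval of the log2 difference was -0.26 to 0.52 for arch minus thymus and -0.42 to 0.37 for adipose minus thymus. Its paralog Ddx17 had 1906, 5182, 2281 and 3393 in arch pools, 3263, 2335, 2454 and 1476 in adipose pools, and 2693, 2043, 10005 and 2442 in thymus pools. Thymus pool 3 was the highest of all. Ddx1, part of the tRNA ligase complex, averaged 2815 ± 844 in arch, 3557 ± 507 in adipose pools and 3553 ± 1044 in thymus.

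The innate RNA sensors were read at low and scattered levels, with 2 of 3 tested and 0 called by limma, edgeR or DESeq2. Over all genes limma called 6.57% in arch against thymus, 2.84% in adipose tissue against thymus and 0.176% in arch against adipose tissue. In the same order edgeR called 4.01%, 2.33% and 0.0879% of all genes, and DESeq2 11.1%, 5.92% and 1.84%. In each comparison with thymus 1 of the 2 had an unadjusted limma p under 0.05. Over all genes this held for 22.7% in arch and 12.8% in adipose tissue. Ddx58, which encodes RIG-I, the cytosolic sensor of viral RNA ends, had 0, 28.5, 591 and 676 normalised counts in arch pools, 15.1, 421, 6.89 and 274 in adipose pools, and 2362, 771, 921 and 419 in thymus pools. Thymus pools were the highest on average but overlapped both other tissues. Arch minus thymus was -2.72 ± 1.29 (log2, SE; adjusted p = 0.217, limma) and adipose minus thymus -3.16 ± 1.29 (adjusted p = 0.28). Arch minus thymus was -1.78 without arch pool 1 (adjusted p = 0.419), and edgeR and DESeq2 gave -1.78 and -1.77. Ddx60, an antiviral relative induced by interferon, had 178, 105, 0 and 0 in arch pools, 32.0, 0, 0 and 0 in adipose pools, and 183, 0, 17.5 and 408 in thymus pools.

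The remaining members are given without a role. Dhx40 had 4482, 2149, 4914 and 6936 normalised counts in arch pools, 3312, 4017, 5467 and 4464 in adipose pools, and 1446, 1797, 3448 and 1562 in thymus pools. Thymus pool 3 overlapped adipose pool 1 and stood above arch pool 2. Arch minus thymus was 1.13 ± 0.37 (log2, SE; adjusted p = 0.0766, limma) and adipose minus thymus 1.13 ± 0.37 (adjusted p = 0.138). Without the 3 pools with the fewest reads per library these were 1.55 (adjusted p = 0.0148) and 1.40 (adjusted p = 0.00749). Leaving out arch pool 2 or thymus pool 3 alone gave an adjusted p of 0.0182 or 0.0332 for arch minus thymus.

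Ddx59 had 0, 0, 81.6 and 0 normalised counts in arch pools, 152, 0, 0 and 124 in adipose pools, and 0, 453, 645 and 238 in thymus pools. The 3 high thymus pools lay above all others and thymus pool 1 was at 0 (arch minus thymus -2.74 ± 1.22, log2, SE; adjusted p = 0.188, limma). With 3 arch pools at 0 this value depends on the pseudocount, at -3.76 with 5 and -1.57 with 100, and it ran from -3.85 to -2.17 on leaving out single pools. Ddx26b averaged 721 ± 495 in arch, 893 ± 432 in adipose pools and 598 ± 738 in thymus, and Dhx57 339 ± 345, 189 ± 145 and 573 ± 409.9 in the same order (SD, n = 4 each). Ddx11, a DNA helicase of sister chromatid cohesion, averaged 126 ± 153 in arch, 184 ± 145 in adipose pools and 176 ± 137 in thymus.

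**Figure D4:**
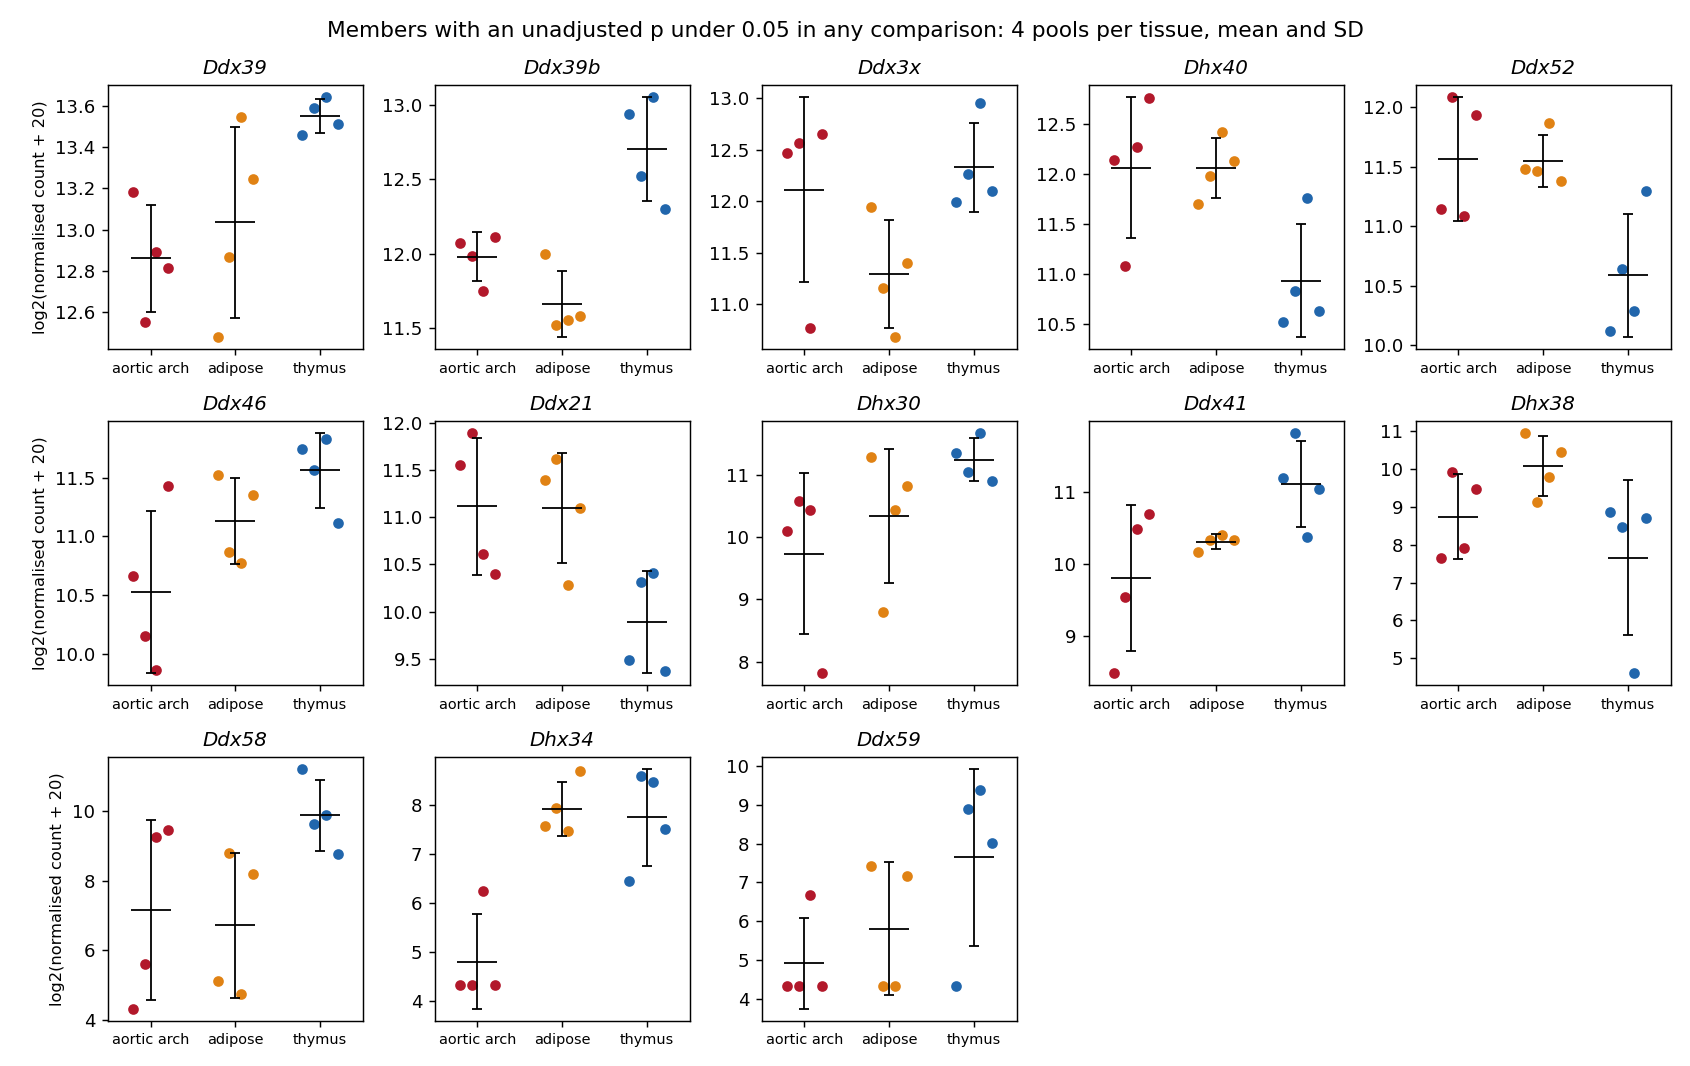
Log2(normalised count + 20) per pool (points) of the 13 members with an unadjusted p under 0.05 in any comparison, with mean and SD of 4 pools in aortic arch, adipose tissue and thymus, each panel on its own y axis. The adipose and thymus pools of Ddx39b do not overlap, and 3 of the 4 arch pools of Dhx34 and Ddx59 sit at the floor set by the pseudocount of 20.

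RNA helicases outside both families were listed for comparison, and 17 of 22 were tested. In arch against thymus limma called 2 higher, beside 3.99% of all genes, and 0 lower, beside 2.58%. edgeR and DESeq2 each called 2, beside 4.01% and 11.1% of all genes. In adipose tissue against thymus limma, edgeR and DESeq2 each called 1 of the 17, beside 2.84%, 2.33% and 5.92% of all genes. In arch 3 of the 17 had an unadjusted limma p under 0.05, beside 22.7% of all genes. In adipose tissue 1 did, beside 12.8%. The list's median log2 difference from thymus was 0.71 in arch and -0.02 in adipose tissue. Over all genes these medians were -0.2 and -0.01, a description with no test. Eif4a1, the helicase that opens mRNA for the scanning ribosome, had 39950.4, 36046, 44644 and 35878 normalised counts in arch pools, 28180.2, 34569.9, 37610.2 and 34152 in adipose pools, and 21249.6, 26103, 22007 and 19122 in thymus pools. All arch and adipose pools lay above all thymus pools. Eif4a1 rose by 0.83 ± 0.15 in arch (log2, SE; adjusted p = 0.0023, limma), a call that ended without the intensity trend (adjusted p = 0.127), and by 0.61 ± 0.15 in adipose tissue (adjusted p = 0.036). The adipose call was kept in 13 of 23 alternatives and ended when arch pool 1, adipose pool 2, 3 or 4 or thymus pool 1, 3 or 4 was left out (adjusted p 0.0501 to 0.137). It also ended without the 3 pools with the fewest reads per library (adjusted p = 0.072), with no filter on low values and without the intensity trend. The highest adjusted p of this call over the alternatives was 0.432 (limma).

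Ascc3, which helps clear stalled ribosomes, had 2069, 1986, 1211 and 3318 normalised counts in arch pools, 974, 652, 1478 and 598 in adipose pools, and 690.0, 595, 230.1 and 482 in thymus pools. It rose in arch by 2.07 ± 0.55 (log2, SE; adjusted p = 0.0285, limma), with the call kept in 16 of 23 alternatives and ended by leaving out arch pool 1, 2 or 4 or thymus pool 3 or 4 (adjusted p 0.0533 to 0.0742). Without the 3 pools rich in markers of other cells its difference was 1.73 with an adjusted p of 0.197, and without the 3 with the fewest reads per library it was 1.41 with 0.247.

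Of 29 tested cofactors of these helicases, limma called 1 in arch, beside 6.57% of all genes, and 0 in adipose tissue, beside 2.84%. In arch 3 of the 29 had an unadjusted limma p under 0.05, beside 22.7% of all genes. In adipose tissue 3 of the 29 did, beside 12.8% of all genes. There edgeR called 0, beside 2.33% of all genes, and DESeq2 called 1, beside 5.92%. The 1 called in arch was Magoh, a core subunit of the exon junction complex, which rose by 1.39 ± 0.31 (log2, SE; adjusted p = 0.01, limma). Without the 3 pools rich in markers of other cells the difference of Magoh was 0.9 with an adjusted p of 0.136, and without the 3 with the fewest reads per library it was 0.92 with 0.159. The call of Magoh also ended without the intensity trend. The partners of Ddx39b in the TREX export complex, 12 tested, had 0 calls by limma, edgeR or DESeq2 in each comparison. By limma 6.57% of all genes were called in arch against thymus, 2.84% in adipose tissue against thymus and 0.176% in arch against adipose tissue. In the same order edgeR called 4.01%, 2.33% and 0.0879% of all genes, and DESeq2 11.1%, 5.92% and 1.84%. An unadjusted limma p under 0.05 was reached by 1 of the 12 in arch, beside 22.7% of all genes, and 0 in adipose tissue, beside 12.8%. Their median log2 difference from thymus was -0.25 in arch and -0.33 in adipose tissue, beside -0.2 and -0.01 over all genes.

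Of 33 other genes of nucleolar ribosome assembly, 2 rose and 1 fell by limma in each comparison with thymus. Over all genes 3.99% rose and 2.58% fell in arch, and 2.17% rose and 0.67% fell in adipose tissue. edgeR called 3 of the 33 in arch, beside 4.01% of all genes, and 2 in adipose tissue, beside 2.33%. Gnl2 in adipose tissue had an adjusted edgeR p of 0.0544. DESeq2 called 5 in each, beside 11.1% of all genes in arch and 5.92% in adipose tissue. In arch 8 of the 33 had an unadjusted limma p under 0.05, beside 22.7% of all genes. In adipose tissue 9 of the 33 did, beside 12.8%. Wdr12, part of the PeBoW complex of the large subunit, fell by 1.69 ± 0.32 in arch (log2, SE; adjusted p = 0.00286, limma), a call kept in 23 of 23 alternatives, and by 1.36 ± 0.32 in adipose tissue (adjusted p = 0.0226). Gnl2, a GTPase of large subunit assembly, rose by 1.84 ± 0.42 in arch (adjusted p = 0.0109) and by 1.60 ± 0.42 in adipose tissue (adjusted p = 0.0448). The nucleolar chaperone Npm1 rose in arch by 0.64 ± 0.17 (adjusted p = 0.0325) and nucleolin (Ncl) in adipose tissue by 0.92 ± 0.24 (adjusted p = 0.0373). The list's median log2 difference from thymus was 0.41 in arch and 0.69 in adipose tissue, beside -0.2 and -0.01 over all genes, which describes the list with no test. The call of Npm1 in arch ended without arch pool 2 or 4 or thymus pool 1, 2 or 4 (adjusted p 0.0623 to 0.112). In adipose tissue that of Ncl ended without adipose pool 1, 3 or 4 or thymus pool 2, 3 or 4 (0.0545 to 0.128), that of Wdr12 without adipose pool 1 or 4 or thymus pool 1, 2 or 3 (0.0524 to 0.0784), and that of Gnl2 without any of 8 pools (0.0524 to 0.135). Without the 3 pools richest in markers of other cells the adjusted p was 0.194 for Npm1 in arch (log2 difference 0.51), 0.1 for Ncl in adipose tissue (0.8) and 0.0564 for Gnl2 in adipose tissue (1.60). Without the 3 with the fewest reads per library it was 0.144 for Npm1, 0.0886 for Ncl and 0.0511 for Gnl2 in arch. Without the intensity trend the calls of Npm1 in arch and of Ncl, Wdr12 and Gnl2 in adipose tissue also ended. Their highest adjusted p over the alternatives was 0.233, 0.273, 0.0996 and 0.135 in this order (limma). With no filter on low values those of Ncl and Gnl2 in adipose tissue ended as well.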

How the data were processed

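DP cells of 3 tissues were profiled by low-input RNA sequencing, with amplification for 18 cycles and single-end reads of 50 bp per the labels' protocols. The submitters' processing notes name FastQC 0.11.5, STAR 2.6.0c and GRCm38. The sources used here do not give the counting tool, annotation or strand setting. The deposited signal is a normalised read count per gene and pool, made by the authors, with the libraries of a pool already combined. Each column's values are whole multiples of its smallest value (100% of 120369 values above 0, within 0.01), so whole reads were recovered, and 12 columns held 11577253 to 34599519 of them.

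The main test was limma 3.58.1 in R 4.3.3 with an intensity trend on log2(normalised count + 20). This scale understates changes of low genes. A gene was tested if 4 or more columns reached 100 (9106 genes), all 12 columns entered 1 fit with tissue as the only term, and p-values were two-sided and adjusted by Benjamini-Hochberg over all tested genes, with calls under 0.05. The pool was the replicate, 4 per tissue. That pools came from separate mice is read from the labels' wording, and mice may be shared between tissues. edgeR 4.0.16 (quasi-likelihood, TMM) and DESeq2 1.42.0 were run on the recovered reads. DESeq2 gave no adjusted p for 1 member in each comparison. Alternatives changed scaling, pseudocount, filter, trend, pool number as a block and the pools left out. The alternatives for genes outside both families were chosen after seeing the data. The scripts were tested on simulated data.

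Members called, or with an unadjusted p under 0.05, were named, with up to 3 further members of the highest mean per role; others are named where they were at 0 or outside a range. The members, roles, gene lists and tests were chosen with earlier results of these data known. Reads carry no molecular identifiers, so the limit of 3 reads behind a 0 covers counting error only. Exonic lengths, overlaps and shared 50-base words came from GENCODE transcripts of GRCm38, and promoters from RefSeq (GRCm38.p6).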

Additional observations from a re-analysis of the deposited data

Results flagged for a closer look

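In 39 groups of 4 pools (13 members in 3 tissues), 5 held a pool whose gap to the nearest other pool exceeded Dixon's 95% critical share of the group's range. The nominal rate of 1 in 20 groups (1.95 of 39) assumes normal values of genes that were not selected. It cannot be set against the 5, because the values were not logged and the members were picked by an unadjusted p under 0.05. Ddx39b had 4066 normalised counts in adipose pool 1, with the other adipose pools at 2921 to 3043. Ddx3x had 1723 in arch pool 3, with the other arch pools at 5652 to 6429. Ddx52 had 3722 in adipose pool 3, with the others at 2649 to 2831. Ddx59 had 81.6 and Dhx34 had 55.7 in arch pool 3, with the other 3 arch pools of both genes at 0. With those 3 pools at 0 the gap equals the range, so both flags were fixed by the zeros.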

How the results depend on the processing

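For the 20 named differences of members, 23 alternatives gave 460 values, of which 0 reversed, 11 became calls and 8 lost the call of Ddx39b in adipose tissue against thymus. The 10 differences of listed genes outside both families gave 230 values, of which 0 reversed and 59 lost the call. Members called in arch against thymus were 0 in the main test, 5 by DESeq2, 1 without the 3 pools with the fewest reads per library (Dhx40), 1 without the intensity trend (Dhx34) and 0 to 1 on leaving out single pools. In adipose tissue against thymus they were 1 in the main test, 0 without the intensity trend (Ddx39b adjusted p = 0.154) and 0 to 1 on leaving out single pools.

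All genes called in arch against thymus were 598 in the main test, 365 by edgeR, 1007 by DESeq2, 318 without the pools with the fewest reads per library, 354 without those richest in markers of other cells and 333 without the trend. In adipose tissue against thymus they were 259 in the main test, 539 by DESeq2, 130 without the trend and 169 to 320 without single pools. In arch against adipose tissue they were 16 in the main test, 8 by edgeR, 168 by DESeq2, 9 with a pseudocount of 5, 2 with no filter, 0 without the pools with the fewest reads, 0 without those richest in other markers, 3 without the trend and 2 to 18 without single pools. The cause was not tested.

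With the pool number as a replicate block, 608, 243 and 12 genes were called in these 3 comparisons, and 0, 1 and 0 members (Ddx39b adjusted p = 0.0473). Gnl2 in adipose tissue lost its call under the block (adjusted p = 0.0559). The deviations of pools with the same number had correlations of -0.032 to 0.076 (12 pairs), none above the 0.1 set for treating pools as paired. Pairs with different numbers had correlations of -0.088 to 0.073. In 11 of 24 matches a pool correlated best with its own number, where an even share would be 6. A pair can count from both ends, so the 24 matches are not independent. This is at most a hint from the data and not from the design.

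With 4 pools per tissue the intervals of most members are wide, and members at 0 in single pools limit what their means can show.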
